A study of Mus musculus with 20 samples.

Results

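The Spata (spermatogenesis-associated) and Tex (testis-expressed) genes were followed through vincristine treatment in mouse testis. Members were every symbol of the deposited gene table that began with Spata or Tex followed by a digit, without Spata22 and Tex12, and with at least 40 counts over the 20 libraries. Of 73 such symbols, 2 were left out by name and the other 71 were kept, 30 Spata and 41 Tex, out of 22066 symbols in all. The lowest total of a member was 164 counts, and all 71 passed the filter on low counts and were tested. They were sorted by size of fall, the mean of the log2 fold changes in the 3 comparisons of a vincristine group with its untreated group.

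Poly(A) RNA was sequenced from testes of male NSG mice, an immunodeficient NOD scid gamma strain that accepts human cells and was shared by every group. NC held 4 normal control libraries from mice given saline. ALL held 4 from mice engrafted through the tail vein with 400000 human cells of a patient-derived B-cell leukaemia (acute lymphoblastic) and given saline, and VCR held 4 from mice given vincristine, whose labels name no injected cells. Low-VCR and High-VCR held 4 libraries each from engrafted, vincristine-treated mice with low or high leukaemia infiltration. The labels give an age of 6 weeks, and 0.5 mg/kg of vincristine sulfate into the peritoneum once a week for 3 weeks from day 69. Neither the start of that count of days nor the age at sampling is given here. The engrafted cells came from a xenograft, the infiltration index itself is not among the labels, and whether each library stands for its own mouse is not stated. The p-values therefore reflect only how far these libraries scatter, which may be technical.

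The names group genes by where they were found and not by ancestry. Spermatogonia divide by mitosis, enter meiosis as spermatocytes, and leave it as round spermatids, which elongate, build an acrosome and a tail, and replace histones with protamines. Many Spata and Tex genes are switched on in spermatocytes or round spermatids, whereas a minority are active in most tissues and only happened to be described in testis first. Vincristine binds tubulin and blocks the spindle of dividing cells. The members were placed in 5 role groups from general knowledge of the genes. These were sperm formation (11 members, such as Spata6 and Tex38), the Spata31 family (5), early germ cell and meiotic genes (10, such as Tex14 and Tex15), genes active in many tissues (13, such as Tex2 and Spata2), and a remainder of 32 with a less certain role.

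Promoter sequences are shown for members with a large fall (Spata31, Tex21, Spata46 and Spata31d1d) and for a pair that rose (Spata5l1 and Tex19.2), so that the letters upstream of genes that moved together can be read side by side. Each is the 250 bases before the transcription start in RefSeq, build GRCm38.p6, written 5′ to 3′ on the strand of the gene. Capitals mark the letters AACTG (the core bound by MYB factors) and TGACG (the core of the cyclic AMP response element, bound by CREM in spermatids), read on both strands, so CAGTT and CGTCA are their reverse forms. GTTGCC (bound by RFX factors) was also searched in the same way and does not occur in these 6 windows. The positions were chr13:64917156-64917405 on the plus strand for Spata31, chr12:76246747-76246996 on the minus strand for Tex21, chr1:170308569-170308818 on the plus strand for Spata46, chr13:59731753-59732002 on the minus strand for Spata31d1d, chr2:122630375-122630624 on the plus strand for Spata5l1 and chr11:121118678-121118927 on the minus strand for Tex19.2.
Spata31: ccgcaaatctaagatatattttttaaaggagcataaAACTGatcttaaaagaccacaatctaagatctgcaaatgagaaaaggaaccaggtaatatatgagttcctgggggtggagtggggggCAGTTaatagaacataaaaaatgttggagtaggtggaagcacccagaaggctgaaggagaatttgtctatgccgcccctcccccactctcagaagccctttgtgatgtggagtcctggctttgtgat
Tex21: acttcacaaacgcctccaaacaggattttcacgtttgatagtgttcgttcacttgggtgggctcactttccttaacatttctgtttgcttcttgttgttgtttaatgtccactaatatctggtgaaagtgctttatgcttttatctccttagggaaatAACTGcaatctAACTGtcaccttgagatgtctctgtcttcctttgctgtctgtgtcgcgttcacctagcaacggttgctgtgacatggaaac
Spata46: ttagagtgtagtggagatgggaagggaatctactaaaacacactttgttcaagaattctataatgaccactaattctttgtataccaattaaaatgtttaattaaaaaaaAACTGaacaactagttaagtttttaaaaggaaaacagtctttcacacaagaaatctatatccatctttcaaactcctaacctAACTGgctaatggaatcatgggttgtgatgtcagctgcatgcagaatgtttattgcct
Spata31d1d: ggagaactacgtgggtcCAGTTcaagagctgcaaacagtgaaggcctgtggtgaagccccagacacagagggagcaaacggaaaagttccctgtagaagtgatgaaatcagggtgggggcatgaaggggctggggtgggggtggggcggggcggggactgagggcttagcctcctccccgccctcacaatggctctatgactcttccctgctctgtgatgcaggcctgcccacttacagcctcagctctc
Spata5l1: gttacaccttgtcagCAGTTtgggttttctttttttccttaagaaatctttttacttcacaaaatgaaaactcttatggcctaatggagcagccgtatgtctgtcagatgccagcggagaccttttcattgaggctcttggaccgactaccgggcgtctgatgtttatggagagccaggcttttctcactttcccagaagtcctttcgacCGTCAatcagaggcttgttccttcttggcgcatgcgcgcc
Tex19.2: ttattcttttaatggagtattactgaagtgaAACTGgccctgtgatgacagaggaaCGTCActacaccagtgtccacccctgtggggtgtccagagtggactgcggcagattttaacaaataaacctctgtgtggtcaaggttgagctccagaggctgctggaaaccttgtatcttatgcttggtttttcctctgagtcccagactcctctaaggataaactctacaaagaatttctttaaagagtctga
AACTG stood in all 6 of these windows and TGACG in those of Spata5l1 and Tex19.2. Over the 57 members with a RefSeq window (69 windows, since some genes have several starts), AACTG was in 39.1% of windows, against 39.1% of the 32851 windows of all genes. TGACG was in 20.3% of member windows against 17.8% of all, and GTTGCC in 14.5% against 10.4%. AACTG can share bases with either of the other motifs where they adjoin, and a match is a description of the letters, not a bound site.

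Total counts per library lay between 9425158 and 16357287. The members held 1.48 to 1.60% of all counts in the 8 untreated libraries, 0.906 to 1.06% in Low-VCR, 0.492 to 0.789% in High-VCR and 0.329 to 0.648% in VCR 2 to 4. VCR 1 stood apart, with 0.0905% of its counts in members and 11.9% in mitochondrially encoded genes, against 1.78 to 2.60% mitochondrial in untreated libraries and 4.69 to 9.08% in the other treated ones. In VCR 1 the median member lay 5.73 log2 units under the mean of NC, whereas in VCR 2, 3 and 4 it lay 2.65, 1.49 and 2.06 units under it. It was the lowest of the 20 libraries for 61 of 71 members, as for 32.8% of all genes tested. The library numbers of NC and VCR form a range of their own, so a comparison of either with an engrafted group cannot be told apart from that range.

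**Figure D1:**
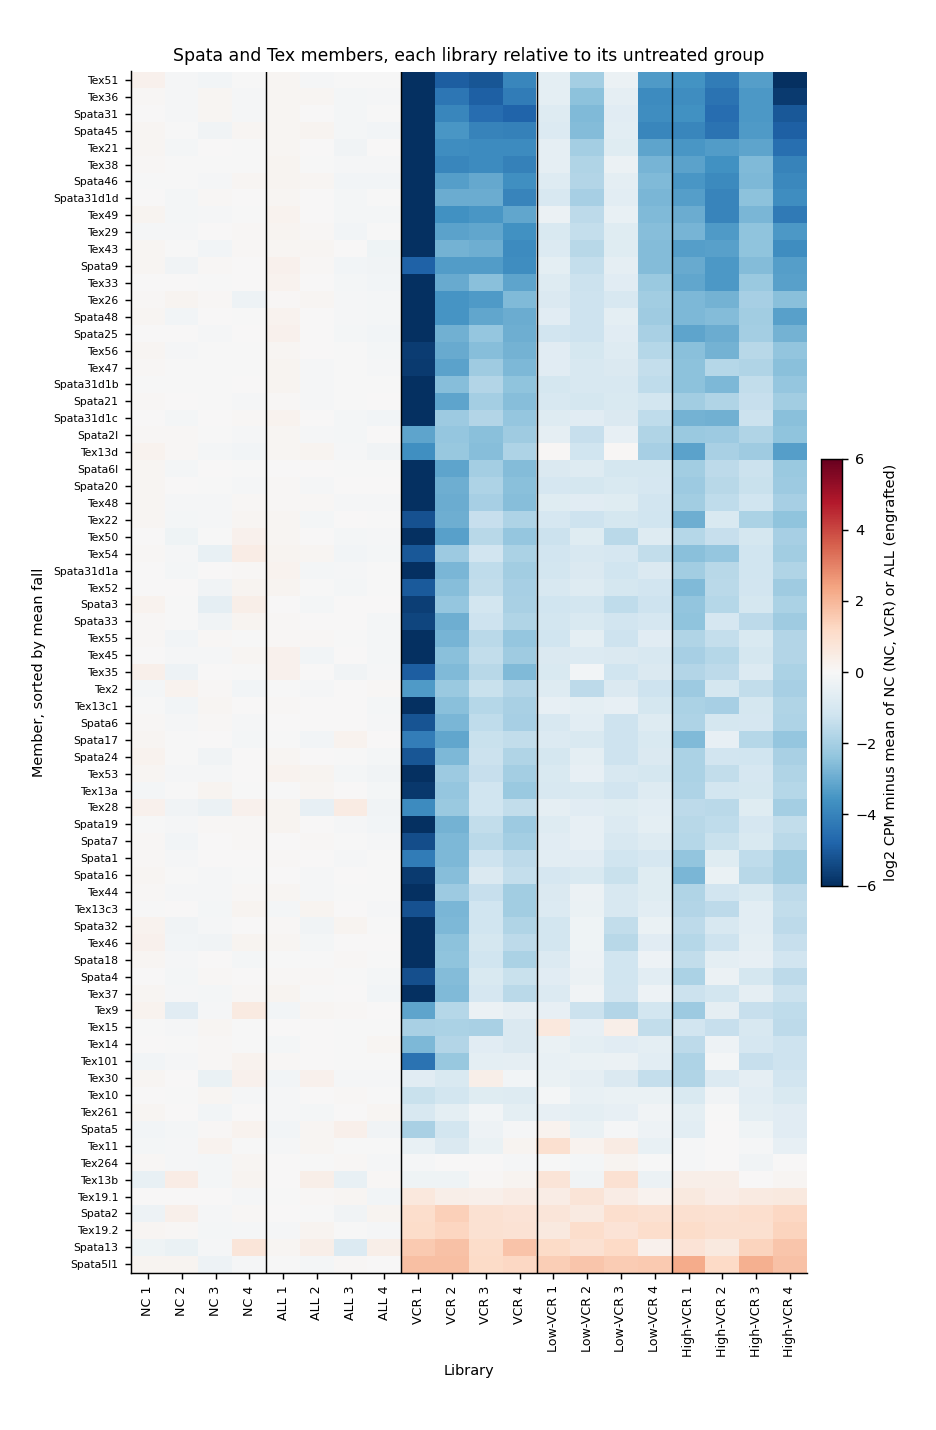
Each row is 1 of the 71 members, sorted by mean fall, and each column 1 library; colour gives log2 CPM minus the mean of NC (for NC and VCR) or of ALL (for the engrafted groups), with values beyond 6 units shown as 6. Blue fills the treated columns for most rows, deepest in VCR 1, and the last 5 rows are red in all 3 treated groups, a direction that turns with Sertoli scaling.

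Levels are given as CPM, a gene's counts scaled to a common library total, here after TMM, edgeR's correction for library composition. In NC the members spanned from 1.01 CPM on average for Tex28 to 2292 for Spata20, followed by Spata21 at 1835, Spata4 at 1352 and Spata6 at 1320. Divided by exonic length, which was available for 63 members, the order of the top changed to Spata4 at 1279 CPM per kilobase, Spata20 at 797.5, Spata21 at 698 and Spata18 at 405, and the lowest was Spata13 at 0.234. The strand setting of the counting is not given in the sources used here. Spata4 is 1 of 10 members that overlap a gene on the opposite strand. The others are Spata1, Spata2, Spata2l, Spata5, Spata25, Spata31d1d, Spata48, Tex9 and Tex10. Reads of such pairs, and of members that share sequence with a near copy (Spata31d1b shares 24.9% and Spata31d1a 19.7% of its 50-base stretches with other genes), may have been divided in ways the table does not show.

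Engraftment without the drug was asked about by ALL against NC. No member was called in that comparison by edgeR (0% of all genes were called in either direction), and DESeq2 called none either. At an unadjusted p under 0.05 stood 1 member, Tex30, named after its values were seen. Tex30 was at 12.3, 11.3, 8.44 and 13.6 CPM in NC and 20.8, 27.9, 22.2 and 22.4 in ALL, without overlap, a log2 fold change of 1.03 ± 0.29 (standard error) with an edgeR adjusted p of 0.725. The groups did not overlap in 2 members with ALL lower (5.49% of all genes) and in 4 with ALL higher (3.41%). Tex30 shares 13.5% of its 50-base stretches with an overlapping gene model, Gm29247.

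Vincristine alone was asked about by VCR against NC. The members fell broadly: 62 of 71 were called lower (edgeR quasi-likelihood test at an adjusted p under 0.05, with Benjamini-Hochberg adjustment across the 16534 genes tested), where 35.6% of all genes were. Another 5 were called higher (42.1% of all genes), and 4 passed in neither direction: Tex11, Tex13b, Tex30 and Tex264. The median member changed by -2.30 on the log2 scale, against 0.10 for all genes. In 60 members every VCR library lay under every NC library (34.2% of all genes did), in 5 every VCR library lay above every NC library (39.7%), and 17 members fell 8-fold or more (4.63% of all genes). Without VCR 1, which stood apart, 60 members were lower and 5 higher, and the changes of Spata31, Spata6 and Spata20 were -4.39, -2.01 and -2.35. The range over all members ran from -5.08 for Tex51 to 1.53 for Spata5l1. In whole tissue, fewer cells of a type and less RNA per cell cannot be told apart.

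All 11 members of the sperm formation group fell, with a median of -2.37. Spata6, which is needed for the piece that joins the sperm head to its tail, was the most abundant of them. Its CPM was 1396, 1274, 1362 and 1248 in NC libraries 1 to 4 and 35.7, 199, 458 and 326 in VCR libraries 1 to 4. All VCR values lay under all NC values, and VCR 1 was far under the other 3, for a fall of 5.18-fold (-2.37 ± 0.47, adjusted p 0.000205). Spata33, which anchors the phosphatase calcineurin to sperm mitochondria, went from 594, 551, 477 and 618 CPM to 12.2, 72.7, 234 and 159.6. The VCR libraries spanned a wide range here, all of it under NC, and the fall was 4.68-fold (-2.23 ± 0.54, adjusted p 0.00115). Tex38, which works with a palmitoyltransferase in shaping the sperm head, went from 78.0, 72.9, 72.8 and 74.3 CPM to 0.762, 4.86, 5.44 and 4.41. That was the largest fall of the group, 19.14-fold (-4.26 ± 0.53, adjusted p 1.62e-06). Tex43, a protein of the tail microtubules, went from 56.9, 50.8, 46.1 and 53.5 to 0.152, 7.06, 6.82 and 3.73 CPM and fell 11.6-fold (-3.54 ± 0.58, adjusted p 3.15e-05). Tex43 was picked among members called lower in all 3 comparisons with the drug, so its adjusted p describes that choice.

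The Spata31 family, a set of related testis genes of which Spata31 itself takes part in building the acrosome, fell in all 5 members, from -4.77 to -2.44. Spata31 was at 445, 417, 467 and 409 CPM in NC and 1.68, 28.4, 18.0 and 15.5 in VCR. The highest VCR library was still far under the lowest NC library, and the fall was 27.3-fold (-4.77 ± 0.73, adjusted p 1.63e-05). Spata31d1b, the most abundant of the 5, was at 528, 521, 518 and 544 in NC and 2.97, 90.1, 154 and 99.7 in VCR, a fall of 6.09-fold (-2.61 ± 0.62, adjusted p 0.00108). The doubt on shared sequence given above touches Spata31d1b and Spata31d1a, and that on overlap touches Spata31d1d. Spata31, Spata31d1c and Spata31d1d shared 0% of their 50-base stretches with another gene.

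All 32 members of the remainder fell, with a median of -2.79 and a range of -5.08 to -1.84. The 5 members with the largest mean fall (Tex51, Tex36, Spata31, Spata45 and Tex21) were taken from the sort itself, so their values describe that choice. Tex51 was at 27.6, 21.9, 20.3 and 23.0 CPM in NC and 0, 0.683, 0.590 and 1.45 in VCR, with no count in VCR 1. Its fitted change was -5.08 ± 0.72 (adjusted p 6.85e-06), and -5.72 without VCR 4. Tex36 went from 165, 149.5, 172 and 152 CPM to 0.533, 7.90, 5.25 and 8.60, a change of -4.84 ± 0.74 (adjusted p 1.61e-05). Spata45 went from 53.8, 49.7, 43.5 and 54.6 to 0.152, 4.41, 3.02 and 2.97 CPM, a change of -4.25 ± 0.67 (adjusted p 2.17e-05). Tex21 went from 244, 208, 223 and 217 to 0.9904, 16.9, 16.1 and 15.97 CPM, a change of -4.16 ± 0.64 (adjusted p 1.86e-05). In Tex21 the libraries VCR 2 to 4 were nearly equal and VCR 1 was far under them.

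Of the 3 most abundant genes of the remainder, Spata20 and Spata21 fell by amounts near the median of the group, and Spata4 fell by the least of all 32 (-1.84 ± 0.56, adjusted p 0.00650). Spata20, a thioredoxin-like protein of spermatids, was at 2452, 2303, 2257 and 2158 CPM in NC and 17.4, 303, 636 and 406 in VCR. It fell 6.73-fold (-2.75 ± 0.58, adjusted p 0.000405), and VCR 1 was again far under the other 3 treated libraries. Spata21, with a calcium-binding EF-hand, went from 1943, 1850, 1794 and 1753 to 17.9, 206, 442 and 311 CPM, a fall of 7.51-fold (-2.91 ± 0.54, adjusted p 0.000115). Among the other named members, Spata9 fell 13.1-fold, Tex29 13.2-fold, Tex56 8.89-fold, Spata25 8.43-fold and Tex47 7.97-fold. Each had every VCR library under every NC library (34.2% of all genes) and an adjusted p between 3.05e-07 and 2.57e-05. They were picked among members called lower in all 3 comparisons with the drug, VCR against NC included. Their adjusted p therefore describe that choice.

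The early germ cell and meiotic group was mixed, with 6 of 10 called lower (35.6% of all genes), 2 higher (42.1%) and a median of -1.44. Tex15, needed for meiotic recombination and for silencing of transposons, was at 159.9, 155, 176 and 159 CPM in NC and 42.6, 43.6, 41.6 and 90.05 in VCR. Libraries VCR 1 to 3 were nearly equal and VCR 4 was higher, and the fall was 2.98-fold (-1.58 ± 0.33, adjusted p 0.000386). Tex14, which holds open the bridges between sister germ cells, was at 129, 127, 134 and 126 in NC and 20.04, 37.8, 80.5 and 71.2 in VCR. It fell 2.46-fold (-1.30 ± 0.32, adjusted p 0.00125). The rest of the lower ones were Tex13a, Tex13c1, Tex13c3 and Tex13d, with larger falls of -2.21, -2.40, -2.25 and -2.51. Those falls lay near the sperm formation median of -2.37, and whether these genes mark early stages in these testes was not tested. Tex11, an X-linked crossover gene, was at 9.40 ± 1.01 CPM in NC and 7.36 ± 2.28 in VCR (SD, n = 4). The libraries of the groups overlapped, and the change of -0.35 ± 0.24 did not pass (adjusted p 0.191).

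Among the 13 genes active in many tissues, 8 were called lower (35.6% of all genes) and 3 higher (42.1%), with a median of -0.70. The label is from general knowledge, and which testis cells hold these transcripts was not tested. Spata7 changed by -2.43, with 491.8 to 577.8 CPM in NC and 13.64 to 177.2 in VCR. Tex2, a lipid-transfer protein of the endoplasmic reticulum, was at 823, 1018, 931 and 795 CPM in NC and 83.4, 192, 356 and 261 in VCR. All VCR libraries lay under all NC libraries, for a fall of 4.00-fold (-1.9989 ± 0.34, adjusted p 4.59e-05). Spata18, which acts in the quality control of mitochondria, went from 938, 823, 864 and 790.2 to 10.7, 162, 369 and 228 CPM, a fall of 4.44-fold (-2.15 ± 0.58, adjusted p 0.00284). Spata2l, a relative of Spata2, went from 23.9, 23.5, 21.9 and 21.2 to 2.44, 4.41, 3.87 and 5.02 CPM. Its VCR values lay close together, with VCR 1 not far under the others, and it fell 5.73-fold (-2.52 ± 0.26, adjusted p 2.19e-07). Tex261, which helps proteins leave the endoplasmic reticulum, fell slightly, from 52.99, 49.62, 44.12 and 49.9 to 25.37, 33.04, 44.06 and 33.09 CPM, where VCR 3 lay just under NC 3 (-0.54 ± 0.16, adjusted p 0.00547), a call lost with scaling by library size alone (adjusted p 0.303). Spata2l and Tex261 were picked among members called lower in all 3 comparisons with the drug, so their adjusted p describe that choice. Tex264, a receptor for autophagy of the endoplasmic reticulum, was at 31.4, 28.6, 27.2 and 32.1 CPM in NC and 28.3, 29.9, 30.5 and 28.5 in VCR (-0.03 ± 0.09, adjusted p 0.786).

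**Figure D2:**
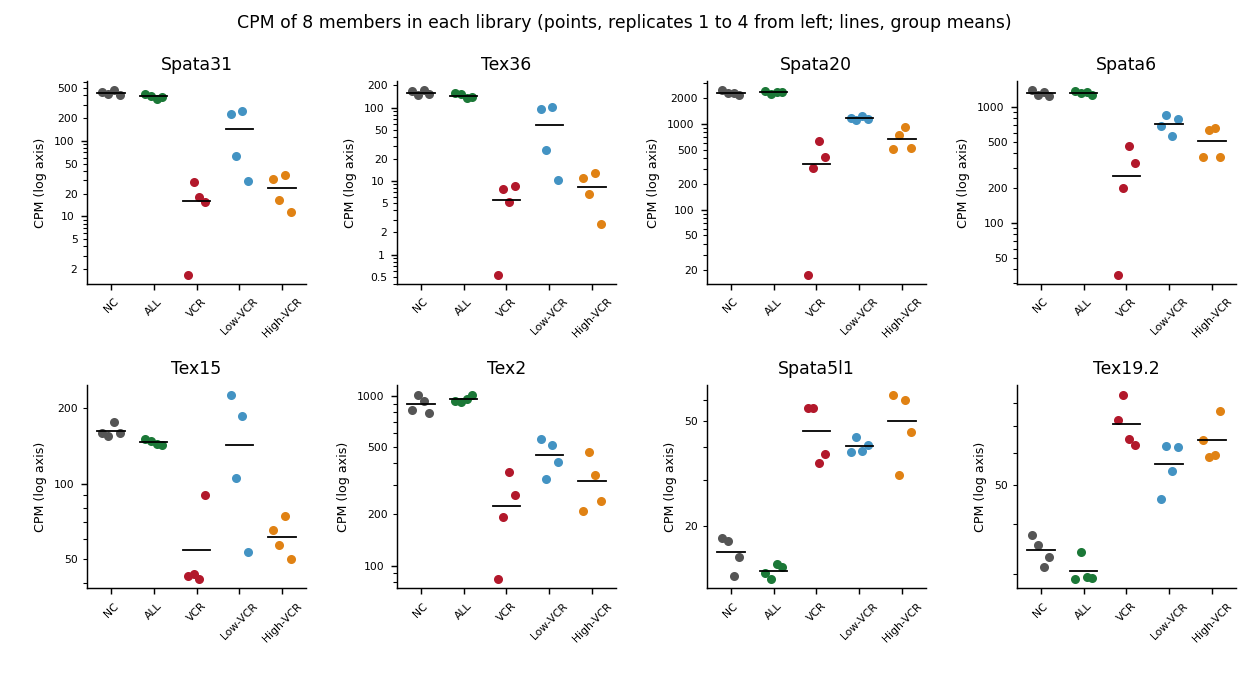
CPM on log axes for 8 members, with points for replicates 1 to 4 of each group from left to right and lines at group means. Spata31 and Tex36 are low in VCR and High-VCR and spread widely in Low-VCR, Spata20 is tight in Low-VCR, and Spata5l1 and Tex19.2 are higher in all treated groups, a direction that turns when libraries are scaled on Sertoli genes.

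High infiltration with the drug was asked about by High-VCR against ALL. The fall recurred in these libraries: 56 of 71 members were called lower (30.5% of all genes) and 5 higher (42.4%), with a median of -1.60 against 0.16 for all genes. In 61 members every High-VCR library lay under every ALL library (29.1% of all genes), and in 5 above (40.9%). Called lower were all 5 Spata31 members, 9 of 11 in sperm formation and 29 of 32 in the remainder. So were 6 of 10 early germ cell and meiotic genes and 7 of 13 broadly active ones. In all 11 of sperm formation and all 32 of the remainder, every High-VCR library lay under every ALL library, called or not. The 10 that passed in neither direction were Spata4, Spata5, Spata18, Spata32, Tex11, Tex13b, Tex37, Tex46, Tex101 and Tex264.

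The members at the top of the sort were low in all 4 High-VCR libraries. The sort itself counts this comparison, so their values and adjusted p describe that choice. Spata31 was at 418, 394, 359 and 386 CPM in ALL and 30.9, 16.2, 35.6 and 11.4 in High-VCR, a fall of 16.6-fold (-4.05 ± 0.70, adjusted p 7.08e-05). Tex36 was at 156, 155, 134 and 138 in ALL and 10.99, 6.68, 13.1 and 2.62 in High-VCR, a fall of 17.5-fold (-4.13 ± 0.71, adjusted p 6.48e-05). Tex51 went from 22.3, 19.5, 19.9 and 20.2 to 1.63, 1.04, 1.97 and 0.168 CPM, with High-VCR 4 the lowest (-4.10 ± 0.66, adjusted p 3.38e-05). The lowest library of all 3 was High-VCR 4, and none came near the range of ALL. Spata45 went from 60.9, 61.5, 51.1 and 49.4 to 3.66, 2.46, 5.26 and 1.79 CPM and fell 17.0-fold (-4.08 ± 0.66, adjusted p 3.12e-05). Tex21 went from 216, 201, 173 and 202 to 17.3, 19.4, 22.0 and 8.48 CPM and fell 11.8-fold (-3.56 ± 0.62, adjusted p 7.77e-05).

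Spata6, Spata20 and Spata21, named for their level in NC, fell by smaller factors in High-VCR than the members at the top of the sort. The latter were picked for their fall, and a link of fall with level was not tested. Spata6 was at 1368, 1335, 1345 and 1271 CPM in ALL and 367, 634, 661 and 372 in High-VCR, a fall of 2.62-fold (-1.39 ± 0.45, adjusted p 0.0115). Spata20 went from 2426, 2212, 2339 and 2334 to 512, 744, 909.6 and 515, a fall of 3.47-fold (-1.80 ± 0.56, adjusted p 0.00901). Spata21 went from 1950, 1764, 1845 and 1867 to 437, 535, 713 and 439.8, a fall of 3.49-fold (-1.80 ± 0.52, adjusted p 0.00502). In all 3 genes every High-VCR library was under every ALL library, with High-VCR 3 the highest of its group, High-VCR 2 next, and High-VCR 1 and 4 lowest and nearly equal. Spata18 was at 894, 869, 930.5 and 890.1 in ALL and 322, 592, 639 and 401 in High-VCR; the groups did not overlap, but the change of -0.88 ± 0.56 did not pass (adjusted p 0.166). It did pass with a fit of only these groups (adjusted p 0.0018) or with the library number range as a term (0.00892). Tex14 fell 1.95-fold (-0.96 ± 0.31, adjusted p 0.0110), Tex15 2.38-fold (-1.25 ± 0.33, adjusted p 0.00277) and Tex2 3.04-fold (-1.61 ± 0.34, adjusted p 0.000393).

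Low infiltration with the drug was asked about by Low-VCR against ALL, which shares its untreated libraries with the High-VCR comparison. Fewer members passed here: 11 of 71 were called lower (15.2% of all genes) and 5 higher (36.4%), with a median of -0.93 against 0.08 for all genes. The share called lower was near that of all genes. Even so, in 59 members every Low-VCR library lay under every ALL library (29.4% of all genes), and in 4 above (35%). The 11 were Spata2l, Spata9, Spata25, Spata45, Tex2, Tex29, Tex30, Tex43, Tex47, Tex56 and Tex261, of which 1 belongs to sperm formation, 4 to the broadly active genes and 6 to the remainder. None of the Spata31 or the early germ cell and meiotic members passed as lower.

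Of the 10 of these followed gene by gene (all but Tex30), Tex2 and Spata2l held their calls in every alternative run. Spata2l is among the members that overlap genes on the opposite strand, and the doubt on such reads applies to it. Tex2 was at 929, 922, 958 and 1013 CPM in ALL and 555, 322, 515 and 409.6 in Low-VCR, a fall of 2.12-fold (-1.08 ± 0.33, adjusted p 0.0116). Spata2l was at 23.4, 20.2, 20.02 and 22.1 in ALL and 14.6, 8.13, 15.2 and 6.10 in Low-VCR, a fall of 1.94-fold (-0.96 ± 0.24, adjusted p 0.00354). Neither gene overlapped between the groups. Low-VCR 1 was the highest of its group for Tex2 and Low-VCR 3 for Spata2l. Spata9 was at 124, 107, 92.9 and 90.2 in ALL and 67.9, 38.1, 70.8 and 16.7 in Low-VCR, a fall of 2.14-fold (-1.10 ± 0.36, adjusted p 0.0166), lost with scaling by library size alone (adjusted p 0.0643). Spata45, Tex29, Tex43, Spata25, Tex56, Tex47 and Tex261 had adjusted p between 0.0295 and 0.0467, and each lost its call without at least 1 of the libraries.

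The number called lower in Low-VCR rested on single libraries and on the scaling. It was 5 without ALL 1, 4 without ALL 2, 3 without ALL 3 or ALL 4, and 4 without Low-VCR 2 or Low-VCR 4. It was 2 with scaling by library size alone, where 5.26% of all genes were called lower, 32 with DESeq2's size factors (27.4%), 42 with DESeq2 (30.8%), 49 with the library number range as a term (22.5%) and 53 with a fit of only these groups (30.3%). Spata20 shows the difference: its CPM was 2426, 2212, 2339 and 2334 in ALL and 1169, 1108, 1238 and 1141 in Low-VCR, tight and without overlap. The change was -0.9997 ± 0.55, with an adjusted p of 0.1298 where all 20 libraries share 1 estimate of the spread, and of 3.45e-06 with only ALL and Low-VCR in the fit.

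**Figure D3:**
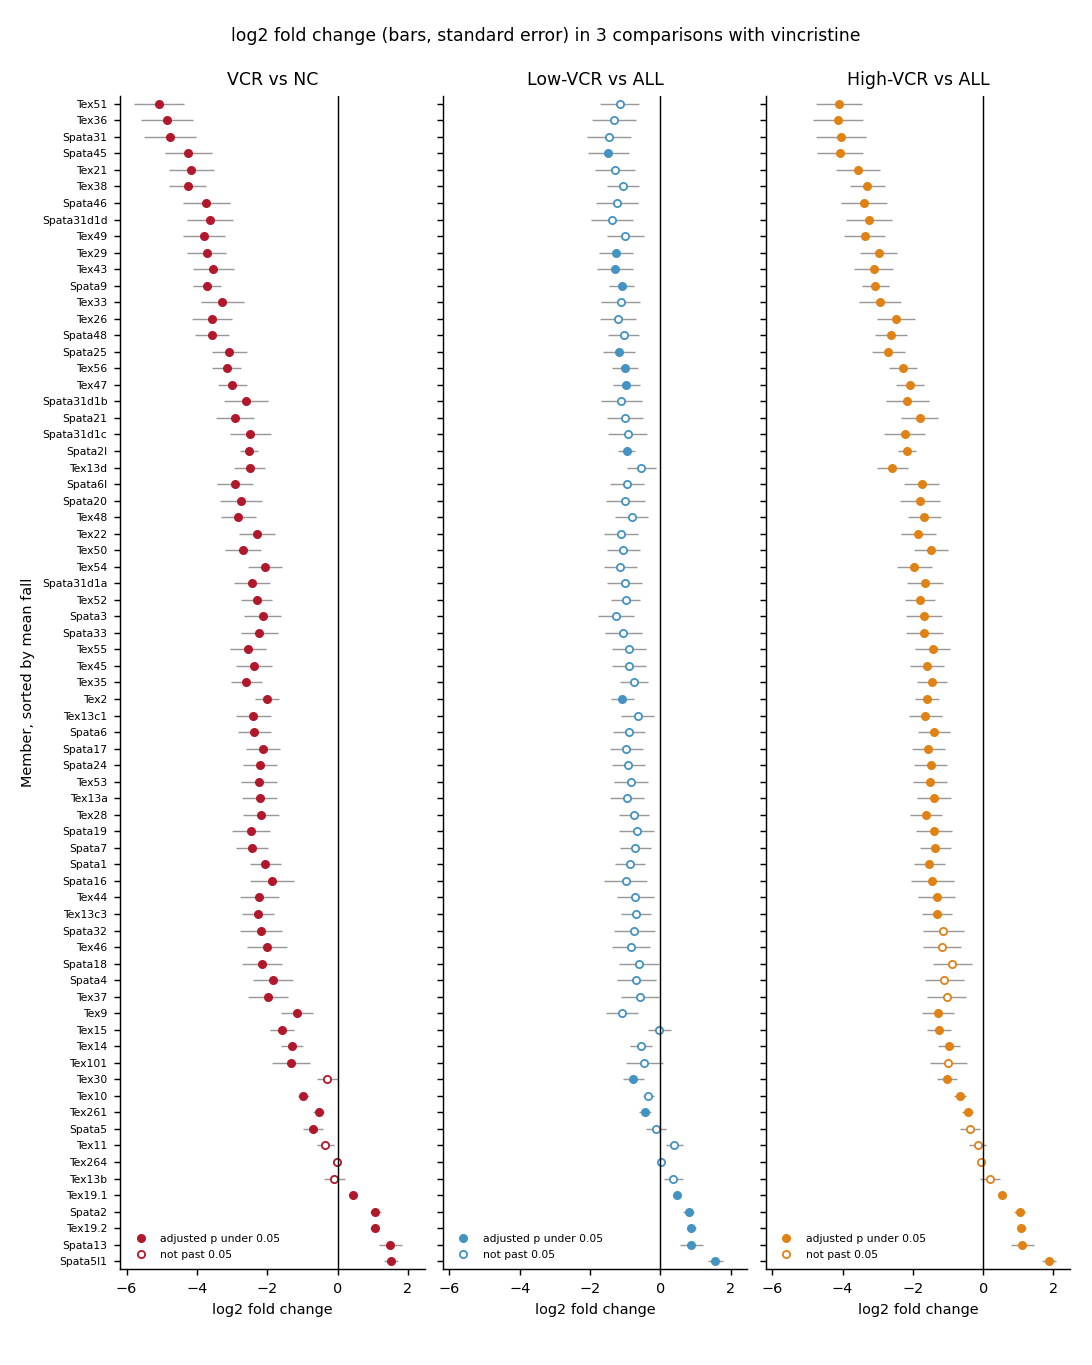
log2 fold changes of the 71 members (points) with standard errors (bars) for VCR against NC, Low-VCR against ALL and High-VCR against ALL, sorted by their mean; filled points passed an adjusted p under 0.05. The points run from -5.08 to 1.53 in VCR, from -1.48 to 1.57 in Low-VCR and from -4.13 to 1.88 in High-VCR; the positive calls turn negative with Sertoli scaling.

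The degree of infiltration was asked about by High-VCR against Low-VCR. Members were lower with high infiltration: 16 of 71 were called lower (4.69% of all genes) and none higher (3.13%; by DESeq2 20 were lower and none higher). The median member was at -0.67 against 0.08 for all genes. The 16 were Tex51, Tex36, Spata31, Spata45, Tex21, Tex38, Spata46, Tex49, Tex29, Tex43, Spata9, Spata48, Tex56, Spata2l, Tex13d and Tex15. In 15 members every High-VCR library lay under every Low-VCR library (4.94% of all genes), and in none above (6.16%).

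Spata9 and Spata2l did not overlap between these groups, though Low-VCR 4 lay close to the highest High-VCR library in both. Spata9 was at 67.9, 38.1, 70.8 and 16.7 CPM in Low-VCR and 12.8, 9.47, 16.6 and 10.4 in High-VCR, a difference of -1.97 ± 0.37 (adjusted p 0.0215). Spata2l was at 14.6, 8.13, 15.2 and 6.10 in Low-VCR and 4.48, 4.74, 5.98 and 3.91 in High-VCR, a difference of -1.21 ± 0.25 (adjusted p 0.0215). Tex13d, a relative of the Tex13 genes on the X chromosome, was at 9.25, 3.83, 9.32 and 2.18 in Low-VCR and 0.882, 2.27, 1.97 and 0.837 in High-VCR, where 1 library of each group crossed (-2.05 ± 0.44, adjusted p 0.0215). Tex15 was at 227, 106, 187 and 53.1 in Low-VCR, from under the lowest ALL library to above the highest, and at 65.2, 56.8, 74.1 and 49.9 in High-VCR (-1.22 ± 0.33, adjusted p 0.0355). Spata6 and Spata20, at -0.50 and -0.80, did not pass (adjusted p 0.480 and 0.359). None of the 16 calls was left without Low-VCR 1, Low-VCR 3, High-VCR 1 or High-VCR 4, each left out in turn, or with only these groups in the fit, where no gene of all tested was called lower.

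Within Low-VCR the members at the top of the sort varied most. In 12 members the highest Low-VCR library was at least 4 times the lowest, as in 7.54% of all genes. Spata45 was at 31.2, 9.05, 36.1 and 3.63 CPM in Low-VCR 1 to 4, Tex36 at 96.9, 26.1, 100.5 and 10.4 and Spata31 at 229.9, 62.2, 246 and 29.3. In these 3 the order was Low-VCR 3, 1, 2 and 4 from high to low. Tex51 was at 13.7, 4.98, 15.9 and 1.89, Tex21 at 137, 47.3, 118 and 22.3 and Tex38 at 47.5, 19.6, 52.7 and 9.73, with Low-VCR 4 again the lowest. Low-VCR 4 was the lowest of its group in 36 of 71 members (24.3% of all genes), Low-VCR 3 in 25 (27.8%), Low-VCR 2 in 8 (25.7%) and Low-VCR 1 in 2 (22.3%). Low-VCR 2 was the highest in 27 (26.2%), Low-VCR 3 in 24 (23.4%), Low-VCR 1 in 17 (22.7%) and Low-VCR 4 in 3 (27.7%).

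Other members did not share that order. Spata20, at 1169, 1108, 1238 and 1141, and Spata21, at 946, 885, 985 and 879, were nearly level. Spata6 was at 684, 850.0, 559 and 789, Spata18 at 506, 735, 388 and 717 and Tex46 at 21.1, 38.0, 14.1 and 28.3. In these last 3 Low-VCR 2 was the highest and Low-VCR 3 the lowest. The mean log2 CPM of 23 markers of round spermatids was 6.82, 6.02, 6.87 and 5.499 in Low-VCR 1 to 4, and that of 16 markers of elongating spermatids was 9.64, 10.14, 9.41 and 9.99. Their part in the order of the members was not tested.

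**Figure D4:**
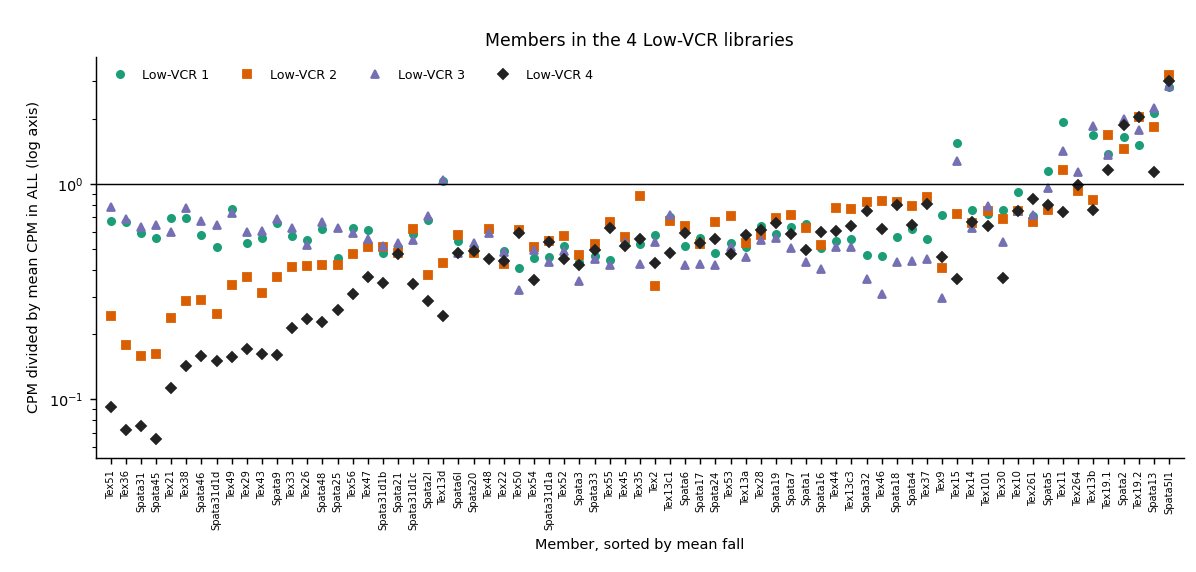
CPM of each member in the 4 Low-VCR libraries divided by its mean in ALL (log axis), members sorted by mean fall from left. At the left end Low-VCR 4 and Low-VCR 2 lie under Low-VCR 1 and 3 (Spata45 at 3.63 and 9.05 CPM against 31.2 and 36.1), and in the middle the 4 libraries lie close together.

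Vincristine in engrafted mice with low infiltration was set beside vincristine without named cells by Low-VCR against VCR. Here 52 of 71 members were called higher (16.7% of all genes) and 1, Tex19.2, lower (13.6%). In 49 members every Low-VCR library lay above every VCR library (13.8% of all genes), and in 1 under (11.5%). All 5 Spata31 members were higher, as were 29 of 32 in the remainder, 7 of 10 early germ cell and meiotic genes, 6 of 11 in sperm formation and 5 of 13 broadly active genes. Tex38 differed by 3.06 ± 0.51 (adjusted p 0.00265), Spata9 by 2.29 ± 0.37 (adjusted p 0.00255) and Spata2l by 1.48 ± 0.26 (adjusted p 0.00271). With only these groups in the fit none passed (Tex38 at an adjusted p of 0.101), and without VCR 2 the count was 28. The groups also differ in the range of their library numbers, from which this difference cannot be told apart.

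Whether the response to the drug itself differed was asked by the interaction, the change of Low-VCR from ALL minus the change of VCR from NC. It was positive, meaning a smaller fall in Low-VCR, and called in 10 of 71 members (3.81% of all genes), and negative and called in none (1.26%). The 10 were Tex51, Tex36, Spata31, Tex38, Tex49, Spata9, Spata48, Tex56, Tex47 and Spata2l. Spata9 fell 13.1-fold in VCR and 2.14-fold in Low-VCR, a difference of 2.62 ± 0.51 (adjusted p 0.0261). Tex38 fell 19.14-fold in VCR, and in Low-VCR changed by -1.08 ± 0.46 without passing (adjusted p 0.0567), a difference of 3.18 ± 0.67 (adjusted p 0.0312). Spata2l fell 5.73-fold and 1.94-fold, a difference of 1.56 ± 0.35 (adjusted p 0.0341).

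These 10 calls were sensitive to single libraries. The count was 0 without NC 1, NC 3, ALL 2, ALL 3, ALL 4, Low-VCR 1 or Low-VCR 3, 1 without ALL 1 or VCR 2, and 2 without NC 2 or NC 4. It was 32 without VCR 1, 28 without VCR 3, 17 without Low-VCR 4 and 24 with DESeq2.

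**Figure D5:**
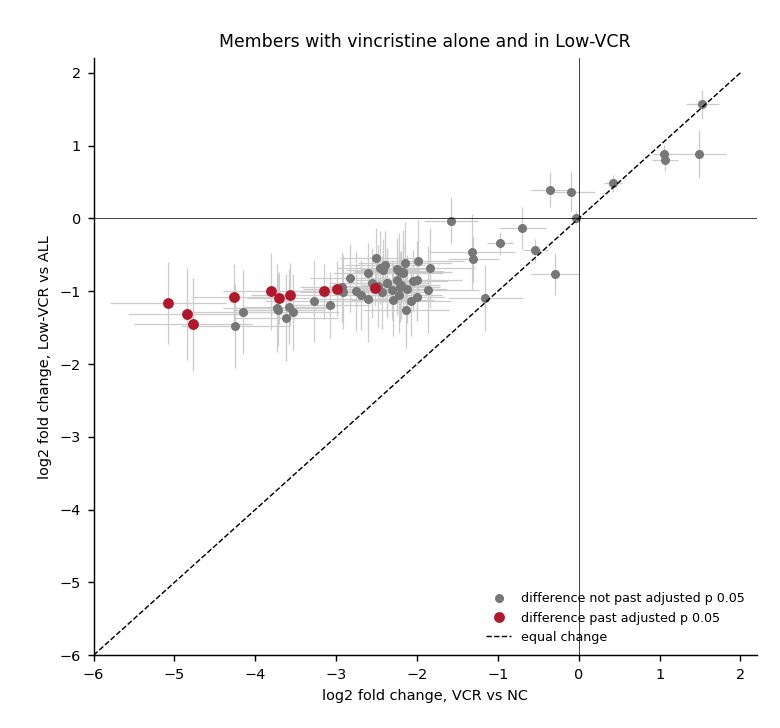
log2 fold change of each member in VCR against NC (x axis) and in Low-VCR against ALL (y axis), with standard errors as bars and a dashed line of equal change; red points are the 10 members whose difference passed an adjusted p under 0.05. Most members lie above the line; the remainder group has a median of -2.79 on the x axis and -1.0016 on the y axis.

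High-VCR and VCR were not told apart by these genes. No member passed in High-VCR against VCR by edgeR (0% of all genes lower and 0.00605% higher) or DESeq2, 16 stood at an unadjusted p under 0.05, and the differences ran from -0.22 to 1.34 on the log2 scale. In 2 members every High-VCR library lay above every VCR library (2.25% of all genes), and in none under (0.641%). The interaction of High-VCR from ALL with VCR from NC called none by either tool (0% and 0.00605% of all genes), with 0 at an unadjusted p under 0.05. Spata31 was at 15.9 ± 11 CPM in VCR (SD, n = 4) and 23.5 ± 11.6 in High-VCR, a difference of 0.56 ± 0.63 (adjusted p 0.856). Spata20 was at 341 ± 256 in VCR and 670.4 ± 193 in High-VCR, a difference of 0.98 ± 0.55 (adjusted p 0.691). Standard errors of this size leave room for differences of severalfold.

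Across the 3 comparisons with the drug, 10 members were called lower in every one (13.6% of all genes), 5 higher in every one (34.5%) and 3, Tex11, Tex13b and Tex264, in none (16.9%). In 62 members the group means rose in the order VCR, High-VCR, Low-VCR and ALL, as in 30.4% of all genes. For Spata31 those means were 15.9 ± 11, 23.5 ± 11.6, 142 ± 112 and 389 ± 24.4 CPM (SD, n = 4). For Spata6 they were 255 ± 180.2, 509 ± 161, 720.3 ± 128 and 1330 ± 41.4. Of these neighbours, VCR and High-VCR did not pass the test for either gene, nor did Low-VCR and ALL, nor High-VCR and Low-VCR for Spata6.

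The 5 members that rose, Spata5l1, Spata13, Tex19.2, Spata2 and Tex19.1, rose in all 3 comparisons, but all 5 turned to a fall when libraries were scaled on the summed counts of 18 Sertoli cell markers. A pair of them, Tex19.1 and Tex19.2, act in germ cells early in spermatogenesis, and the other 3 are active in many tissues. Spata5l1, an ATPase of ribosome assembly, was at 18.0, 17.6, 13.0 and 15.3 CPM in NC, 55.9, 56.1, 34.8 and 37.6 in VCR and 13.3, 12.7, 14.4 and 14.0 in ALL. Its Low-VCR libraries were at 38.3, 43.4, 38.6 and 40.8, and those of High-VCR at 63.1, 31.3, 60.3 and 45.4. Every treated library lay above every untreated one, and the changes in the 3 comparisons, in that order, were 1.53 ± 0.20, 1.57 ± 0.20 and 1.88 ± 0.20 (adjusted p 2.75e-06, 6.42e-06 and 3.95e-07), against -0.80, -0.45 and -0.46 with Sertoli scaling.

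Tex19.2 and Tex19.1 are neighbouring relatives that restrain retrotransposons in germ cells. Tex19.2 was at 37.5, 35.5, 31.2 and 33.2 CPM in NC and 72.5, 84.1, 65.2 and 62.8 in VCR, and at 29.2, 34.1, 29.5 and 29.4 in ALL, 46.2, 62.6, 54.2 and 62.4 in Low-VCR and 64.7, 58.8, 59.5 and 76.5 in High-VCR. It rose 2.07-fold, 1.84-fold and 2.12-fold in the 3 comparisons (adjusted p 1.06e-06, 1.75e-05 and 8.85e-07), and turned to -1.24, -1.15 and -1.21 on the log2 scale with Sertoli scaling. Tex19.1 rose less, 1.34-fold, 1.40-fold and 1.45-fold (adjusted p 0.00226, 0.00178 and 0.000391), and turned to -1.85, -1.53 and -1.75. Spata2, an adaptor of the deubiquitinase CYLD, rose 2.10-fold, 1.74-fold and 2.05-fold (adjusted p 9.20e-06, 0.000356 and 1.49e-05), and turned to -1.22, -1.21 and -1.26. Spata13 was at 2.13 ± 0.848 CPM in NC and 6.12 ± 1.19 in VCR (SD, n = 4) and rose 2.81-fold (adjusted p 0.000516), turning to -0.77 with Sertoli scaling. Its call in Low-VCR (adjusted p 0.0319) was lost without ALL 1 (0.0571), ALL 3 (0.102), Low-VCR 1 (0.0705), Low-VCR 2 (0.0544) or Low-VCR 3 (0.0811), and with DESeq2 (0.0677).

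With Sertoli scaling the median of all genes itself moved by -2.26, -2.01 and -2.27 in the same order, to -2.17, -1.93 and -2.10. The 5 lay above those medians. All 71 members were called lower, as were 82%, 84% and 82.6% of all genes. The other scalings moved the median of all genes by -0.12 to -0.18 (DESeq2's size factors) and by 0.26 to 0.39 (library size alone) in these comparisons, and left the direction of the 5 unchanged.

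Marker genes of testis cell types, chosen from general knowledge, moved beside the members. Of 23 round spermatid markers, 23 were called lower with VCR, 8 with Low-VCR and 22 with High-VCR, with medians of -3.58, -1.18 and -2.61. The shares of all genes called lower in these comparisons were 35.6%, 15.2% and 30.5%. Their summed CPM was 6743 to 7510 in untreated libraries, 114 to 2153 in VCR, 2902 to 3864 in Low-VCR and 1259 to 2835 in High-VCR. Of 16 elongating spermatid markers, 16, 1 and 7 were called lower in the same order of comparisons, with medians of -2.32, -0.81 and -1.24. Every marker of both lists had a negative change in each comparison, called or not. Between High-VCR and Low-VCR, 11 of the 23 round spermatid markers and none of the 16 elongating ones were called lower (4.69% of all genes), with medians of -1.48 and -0.45. Of 12 markers of later meiotic prophase, 11, 0 and 7 were called lower in the 3 comparisons, and of 20 of its earlier stages 13, 2 and 9. All 12 of the later stages had a negative change in each comparison. In Low-VCR the counts called of the elongating, later prophase and earlier prophase lists lay under the share of all genes.

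Markers of cells outside the germ line were higher. Of all genes, 42.1%, 36.4% and 42.4% were called higher in VCR, Low-VCR and High-VCR, and 35.6%, 15.2% and 30.5% lower. All 18 Sertoli markers and all 9 Leydig markers were called higher in each of the 3 comparisons, the former with a summed CPM of 1755 to 2213 in untreated libraries, 8111 to 12600 in VCR, 6162 to 8152 in Low-VCR and 6380 to 10960 in High-VCR. Leydig markers summed to 1250 to 1999 in untreated libraries, 7096 to 16000 in VCR, 4948 to 6283 in Low-VCR and 6585 to 13730 in High-VCR. Of 13 macrophage markers 12, 11 and 12 were higher in the 3 comparisons, and 1 was lower in each. The 6 peritubular and the 4 tested erythroid markers were all higher in each comparison, as were 7, 6 and 7 of 8 endothelial ones. Of 8 B-lineage markers 4 were tested, of which 2, 1 and 2 were higher and 1, 0 and 1 lower, and they summed to 3.07 to 22.6 CPM over all libraries. Markers of spermatogonia, which are germ cells, went both ways. Of 10 markers of differentiating spermatogonia 3, 1 and 2 were lower and 4, 5 and 4 higher, the latter near the share of all genes in VCR and High-VCR. The 12 tested of 13 markers of undifferentiated spermatogonia were lower in 2, 1 and 0 and higher in 5, 7 and 7. The 5 higher in VCR were near the share of all genes. The 13 markers of undifferentiated spermatogonia summed to 47.3 to 61.0 CPM in untreated libraries, 89.0 to 121.3 in VCR, 81.3 to 97.9 in Low-VCR and 97.0 to 125.8 in High-VCR. None of the 18, 9 or 13 genes of the Sertoli, Leydig and macrophage lists was at 0 throughout a group. The part of these cell types in the changes of the members was not tested.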

How the data were processed

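Testis poly(A) RNA of 20 libraries was measured. Per the submitters' processing notes, reads were handled with STAR 2.7.10b, Trimmomatic 0.39, Subread 2.0.3 (featureCounts) and DESeq2 1.36.0, with build GRCm39. The sources used here do not give annotation, strand setting or treatment of human reads. The authors deposited raw counts per gene symbol, 9425158 to 16357287 per library. From these, edgeR 4.0.16 (R 4.3.3, limma 3.58.1) was fitted here over all 5 groups (filterByExpr with a minimum count of 10, TMM, robust quasi-likelihood, 15 residual degrees of freedom), with Benjamini-Hochberg adjustment over 16534 genes and calls at 0.05. Standard errors are the log2 fold change over the root of F. Alternatives were other scalings, filters, a replicate block, only the groups compared, the library number range, DESeq2 1.42.0, and each library left out. The test was checked on simulated counts.

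Members and lists were chosen with earlier results of these data known. Named genes were the 10 with the largest mean fall among those called lower in all 3 comparisons with the drug at 5 CPM or more in NC, up to 6 with the largest rise among those called higher in 2 or more, the 2 of highest NC level in each role group, and the 3 of smallest adjusted p in each remaining contrast. The 5 with the largest mean fall of any member, and the other genes listed or compared by name (Tex30, Tex11, Tex264, Tex46 among them), were named after their values were seen. Gene models came from GENCODE M21 and promoters from RefSeq (GRCm38.p6). The floor of Tex51 in VCR 1, with no count, is 3 counts, and counting intervals cover counting error only.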

Additional observations from a re-analysis of the deposited data

Results flagged for a closer look

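Of 145 groups of 4 libraries looked at, 4 held a library far from the other 3 by Dixon's criterion, which chance gives in about 1 group in 20. Tex261 was at 47.0 CPM in High-VCR 2, with the nearest library at 31.4. Tex19.2 was at 34.1 CPM in ALL 2, with the nearest at 29.5. Tex15 was at 90.05 CPM in VCR 4, with the nearest at 43.6. Tex21 was at 0.9904 CPM in VCR 1, with the nearest at 15.97.

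In 10 members the change in Low-VCR from ALL differed from the change in VCR from NC by the interaction test of edgeR. The differences on the log2 scale were 3.92 for Tex51 (adjusted p 0.0352), 3.53 for Tex36 (0.0425), 3.31 for Spata31 (0.0460), 3.18 for Tex38 (0.0312), 2.80 for Tex49 (0.0464), 2.62 for Spata9 (0.0261), 2.53 for Spata48 (0.0385), 2.15 for Tex56 (0.0415), 2.03 for Tex47 (0.0456) and 1.56 for Spata2l (0.0341).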

How the results depend on the processing

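Over the log2 fold changes of the named genes in all settings, 1779 values kept their direction and side of the threshold, 189 lost a call, 65 gained one and 30 reversed. Counts of members or spermatid markers called are not in that tally and are given below. With Sertoli scaling no member was called higher in VCR, Low-VCR or High-VCR (0 each). There 71 were lower in Low-VCR (84% of all genes) and 10 between High-VCR and Low-VCR (3.97%). Between Low-VCR and VCR 0 were lower, 0 passed in the Low-VCR interaction, and 39 spermatid markers were lower in Low-VCR. That scaling reversed Spata5l1, Spata13, Tex19.2, Spata2 and Tex19.1, in that order: VCR -0.80, -0.77, -1.24, -1.22 and -1.85; Low-VCR -0.45, -1.11, -1.15, -1.21 and -1.53; High-VCR -0.46, -1.22, -1.21, -1.26 and -1.75; High-VCR against Low-VCR -0.0050, -0.11, -0.0609, -0.044 and -0.22. Lower members in Low-VCR (11) numbered 32 with DESeq2's size factors, 2 with library size alone, 53 with only the groups compared, 49 with the number range and 42 with DESeq2; spermatid markers there (9) numbered 17, 2, 36, 33 and 24. Lower members between High-VCR and Low-VCR (16) numbered 0 with only the groups compared and 31 with the number range, and spermatid markers (11) 0 with only those groups. Between Low-VCR and VCR, 2 were lower with library size alone, 0 without a filter, and 0 lower and 0 higher with only those groups. ALL against NC had 1 higher with only those groups, and the Low-VCR interaction 24 with DESeq2. Tex15 in Low-VCR reversed to 0.24 with library size alone, and ranged from -0.35 to 0.24 with each library left out, positive without Low-VCR 2 (0.07) or Low-VCR 4 (0.24). Between High-VCR and Low-VCR, Tex261 reversed to 0.0146 with library size alone and ranged from -0.19 to 0.0677 with each library left out, positive without Low-VCR 4, High-VCR 1 (0.0416), High-VCR 3 (0.04) or High-VCR 4 (0.0579); Tex19.1 reversed to -0.0304 without a filter and ranged from -0.0236 (without Low-VCR 4) to 0.0942. The cause was not tested.

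With each library left out in turn, lower members numbered 59 to 63 in VCR, 3 to 14 in Low-VCR, 51 to 58 in High-VCR, 0 to 20 between High-VCR and Low-VCR and 0 to 1 between Low-VCR and VCR. Higher members numbered 4 to 6 in Low-VCR, 28 to 60 between Low-VCR and VCR and 0 to 32 in the Low-VCR interaction. Lower spermatid markers numbered 2 to 10 in Low-VCR, 21 to 28 in High-VCR and 0 to 11 between High-VCR and Low-VCR. Replicate numbers were not taken to pair the libraries, since in no comparison was every same-number correlation over 0.1; they were -0.10 to -0.0099 for VCR and NC, 0.0027 to 0.18 for High-VCR and Low-VCR, and -0.38 to 0.53 for High-VCR and VCR. A replicate block left 5 members and 4 spermatid markers lower between High-VCR and Low-VCR, 0 members in the Low-VCR interaction and 0 lower between Low-VCR and VCR. With 4 libraries a group, Tex28, the member of lowest count, carries the widest relative counting error.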
